A study of Mus with 18 samples.

Results

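The 39 genes described here carry glucose into the cell, break it down to pyruvate and lactate, gate pyruvate into the mitochondria and store or release glycogen. They were chosen by symbol, with earlier results of these data known but by no threshold on a measured value, from the 21401 gene symbols of each of 2 tables. Of these, 1 was for cells labelled C2C12, a mouse myoblast line, and 1 for mouse gastrocnemius muscle. All 39 symbols were present in both tables. Each table held 9 libraries, 3 labelled control, 3 labelled LPS and 3 labelled LPS-MIC-1. The cells were labelled wild-type C2C12, the controls as saline vehicle (ethanol by the study's text), the LPS samples as given LPS at 1 μg/mL, and the LPS-MIC-1 samples as given that dose with MIC-1 for 24 h, at 10 μM by the labels and at 1 μM by the study's text. MIC-1 is moringa isothiocyanate-1, a compound of Moringa oleifera seeds, and LPS is the bacterial cell wall component lipopolysaccharide. The muscles came from wild-type male C57BL/6 mice. Controls received vehicle, the LPS group 10 mg/kg LPS into the peritoneum, and the LPS-MIC-1 group the same injection after 80 mg/kg MIC-1 in 10% DMSO by daily gavage for 3 days, with collection 16 h after LPS. No group received MIC-1 alone, and no source used here gives the age of the mice. The values are FPKM, fragments scaled for transcript length and sequencing depth.

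Glycolysis splits glucose into pyruvate in the cytosol and yields ATP without oxygen. Many of its steps are served by several genes, and adult skeletal muscle uses its own set, with the insulin-responsive transporter GLUT4 (Slc2a4), hexokinase 2, the M subunit of phosphofructokinase (Pfkm), phosphoglycerate mutase 2, enolase 3 and muscle glycogen phosphorylase (Pygm), where proliferating and immune cells use GLUT1 (Slc2a1), Pfkl, Pfkp, Pgam1 and Eno1. The pyruvate dehydrogenase kinases switch off the enzyme that feeds pyruvate into the citric acid cycle, and Pdk4 is known for its rise in fasted muscle.

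Marker genes went against several labels, so the groups are named below as labelled. The C2C12 libraries labelled control and LPS carried macrophage genes (Lyz2 from 1786 to 4761 FPKM), Y-linked genes and almost no myoblast genes (9 genes summing to between 0.277 and 2.67 FPKM). The 3 C2C12 libraries labelled LPS-MIC-1 carried myoblast genes, with a sum between 928 and 1181 FPKM, and Xist, and their Lyz2 stood at 48.8, 1.87 and 0.616 FPKM. The macrophage list, 13 of 15 genes of which were in the tables, summed to between 9431 and 11611 FPKM in the libraries labelled control and LPS, and to between 2471 and 3114 in those labelled LPS-MIC-1, mostly through Lgals3, which many cells express (2391 to 3023 FPKM). In each C2C12 comparison with LPS-MIC-1, therefore, the kind of cell and the treatment cannot be told apart. In muscle, the 20 LPS-response genes summed to between 84.5 and 92.5 FPKM in control, between 156 and 164 in the libraries labelled LPS and between 13855 and 15626 in LPS-MIC-1. All 14 that were tested were called higher in LPS-MIC-1 than in LPS, where 9.67% of all genes were. In each muscle comparison with LPS-MIC-1, therefore, the response to LPS and the addition of MIC-1 cannot be told apart. The macrophage list in muscle summed to between 26.7 and 30.3 FPKM in control, 33.7 and 35.9 in LPS, and to 57.2, 55.9 and 230.1 in the LPS-MIC-1 replicates, with 5 of its 9 tested genes called higher than in LPS and 4 higher than in control. Lyz2 measured 78.3 FPKM in replicate 3 against 5.27 and 3.93 in the other LPS-MIC-1 replicates. In tissue, fewer cells of a type and less RNA per cell cannot be told apart.

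**Figure D1:**
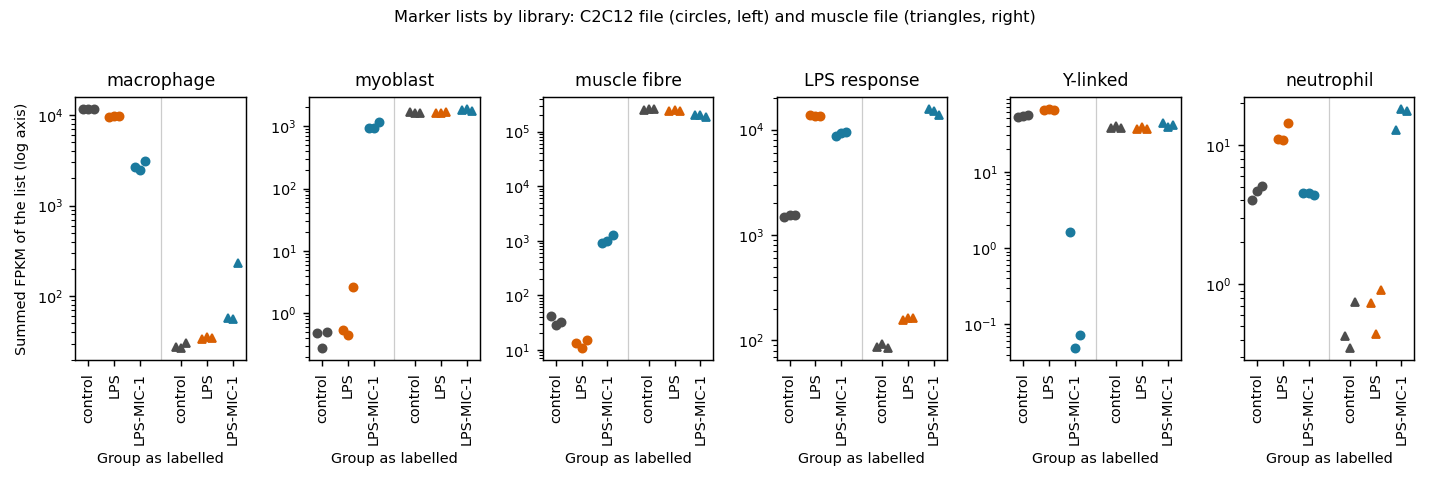
Summed FPKM (log axis) of 6 marker lists in each library of the C2C12 file (circles, left of each panel) and the muscle file (triangles, right), with the groups as labelled on the horizontal axis. Macrophage sums of the C2C12 file lie between 9431 and 11611 in control and LPS, myoblast sums of that file reach 928 to 1181 in LPS-MIC-1 and 2.67 at most in the other libraries, and LPS-response sums of the muscle file reach 13855 to 15626 in LPS-MIC-1.

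Together the 39 genes held 3.29% ± 0.0407 (SD, n = 3) of all FPKM in C2C12 control libraries, 3.06% ± 0.0181 in LPS libraries and 1.49% ± 0.0331 in LPS-MIC-1 libraries. Their share in muscle was 9.25% ± 0.102, 10.4% ± 0.0398 and 8.31% ± 0.137 in the same order. Aldoa, which splits the 6-carbon sugar, and Gapdh, which oxidises the resulting triose, held from 38.4% to 61.1% of the members' FPKM in every library. Genes were tested where their mean FPKM over the 9 libraries was above 1. In C2C12, 35 members passed this filter, and Slc2a4, Pfkfb1, Pdk4 and Pygl did not. Ldhb and Pygm passed only through the libraries labelled LPS-MIC-1. In muscle, 33 passed, and Hk3, Aldoc, Eno2, Pdk3, Pygl and Pygb did not. Hk3 and Aldoc were listed at 0 in all 9 muscle libraries, and Pfkp passed only through LPS-MIC-1.

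**Figure D2:**
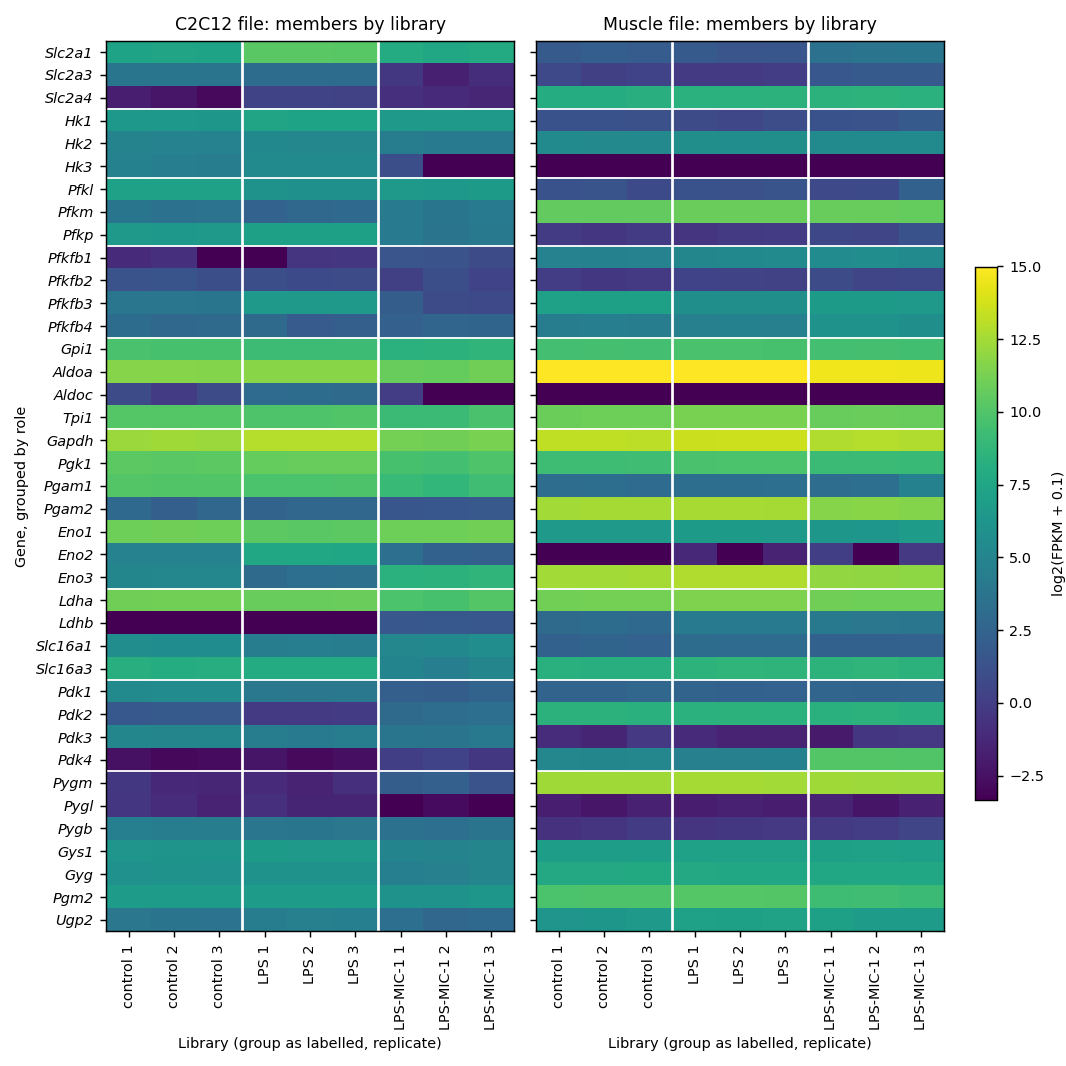
Level of the 39 members as log2(FPKM + 0.1) (colour) in each of the 9 libraries of the C2C12 file (left) and of the muscle file (right), with genes grouped by role. The muscle file shows Slc2a4, Pfkm, Pgam2, Eno3 and Pygm brighter than their relatives. In the C2C12 file each of them is dimmer than the leading gene of its family, and Eno3 is brightest there in LPS-MIC-1.

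The C2C12 libraries labelled LPS differed from those labelled control in GLUT1, a brain-type enolase and the main enzyme that makes fructose 2,6-bisphosphate, all higher, and in 5 genes that were lower. A gene was called when the adjusted p of limma, fitted across all genes, was under 0.001 in C2C12 or 0.05 in muscle and its log2 fold change, on the log2(FPKM + 0.1) scale, was over 1 in either direction. By this rule 8 of 35 members were called, beside 20.9% of all 10877 genes tested. They were 3 higher (Slc2a1, Pfkfb3, Eno2), where 10.9% of all genes were called higher, and 5 lower (Pfkl, Eno3, Slc16a1, Pdk1, Pdk2), where 10% were called lower. By the adjusted p alone, at any fold change, 6 members were higher and 10 lower (18.6% and 19.3% of all genes, 37.8% in either direction). The median log2 fold change of the tested members was -0.15, against 0 over all genes tested. With the library with a macrophage trace, LPS-MIC-1 replicate 1, left out of the shared estimate of spread, 9 members were called.

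Between LPS-MIC-1 and LPS in C2C12, 19 of 35 members were called, where 49.9% of all genes tested were. The 5 higher ones (24.3% of all genes) were Pfkm, Eno3, Ldhb, Pdk2 and Pygm, and the 14 lower ones (25.6%) included all the tested transporters of glucose, Pfkp, Pfkfb3, Gapdh and the glycogen synthase Gys1. Against control, 18 members were called beside 43.3% of all genes, 4 higher (21.1%) and 14 lower (22.1%). Ldhb and Pygm, higher in both comparisons, passed the filter only through LPS-MIC-1, so their calls rest on the group that let them in. The other higher calls were Pfkm, Eno3 and Pdk2 against LPS, and Eno3 and Pdk2 against control. The adjusted p alone gave 8 higher (32.8%) and 21 lower (33.7%) against LPS, where 66.5% of all genes passed, and 5 higher (29.9%) and 20 lower (30.5%) against control, where 60.5% passed. Without LPS-MIC-1 replicate 1 the counts of called members were both 17, with Ldhb no longer over the filter. The median log2 fold change of the members was -0.87 against LPS and -0.82 against control, where all genes tested had medians of -0.047 and -0.06. Leaving out Ldhb, which was listed at 0 in a whole group, the medians were -0.89 and -0.85.

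In muscle, changes past 2-fold were few. In LPS against control 2 of 33 members were called, beside 1.25% of the 9475 genes tested, namely Ldhb (higher, as 0.654% of all genes) and Pfkfb3 (lower, as 0.591%). Slc2a1, Slc2a3, Pfkp, Pfkfb4 and Pdk4 were the 5 members called higher in LPS-MIC-1, both against LPS (15.1% of all genes called, 9.67% higher) and against control (15.5%, 9.33% higher). None was called lower by limma, where 5.44% and 6.12% of all genes were, although 15 members against LPS and 11 against control had an unadjusted p under 0.05 and a negative change. Pfkp passed the filter only through LPS-MIC-1, so its calls rest on the group that let it in. Without LPS-MIC-1 replicate 3, both counts were 4, since Pfkp no longer reached the mean FPKM of 1. Small changes were many. By the adjusted p alone, 18 members were higher (8.25% of all genes) and 2 lower (7.48%) in LPS against control, where 15.7% of all genes passed. In LPS-MIC-1 against LPS, 9 were higher (28.3%) and 15 lower (28.2%), where 56.5% passed, and against control 13 were higher (30%) and 9 lower (28.5%), where 58.5% passed. The median log2 fold changes of the members were 0.22, -0.072 and 0.08, against 0.0055, -0.009 and 0.0095 over all genes.

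**Figure D3:**
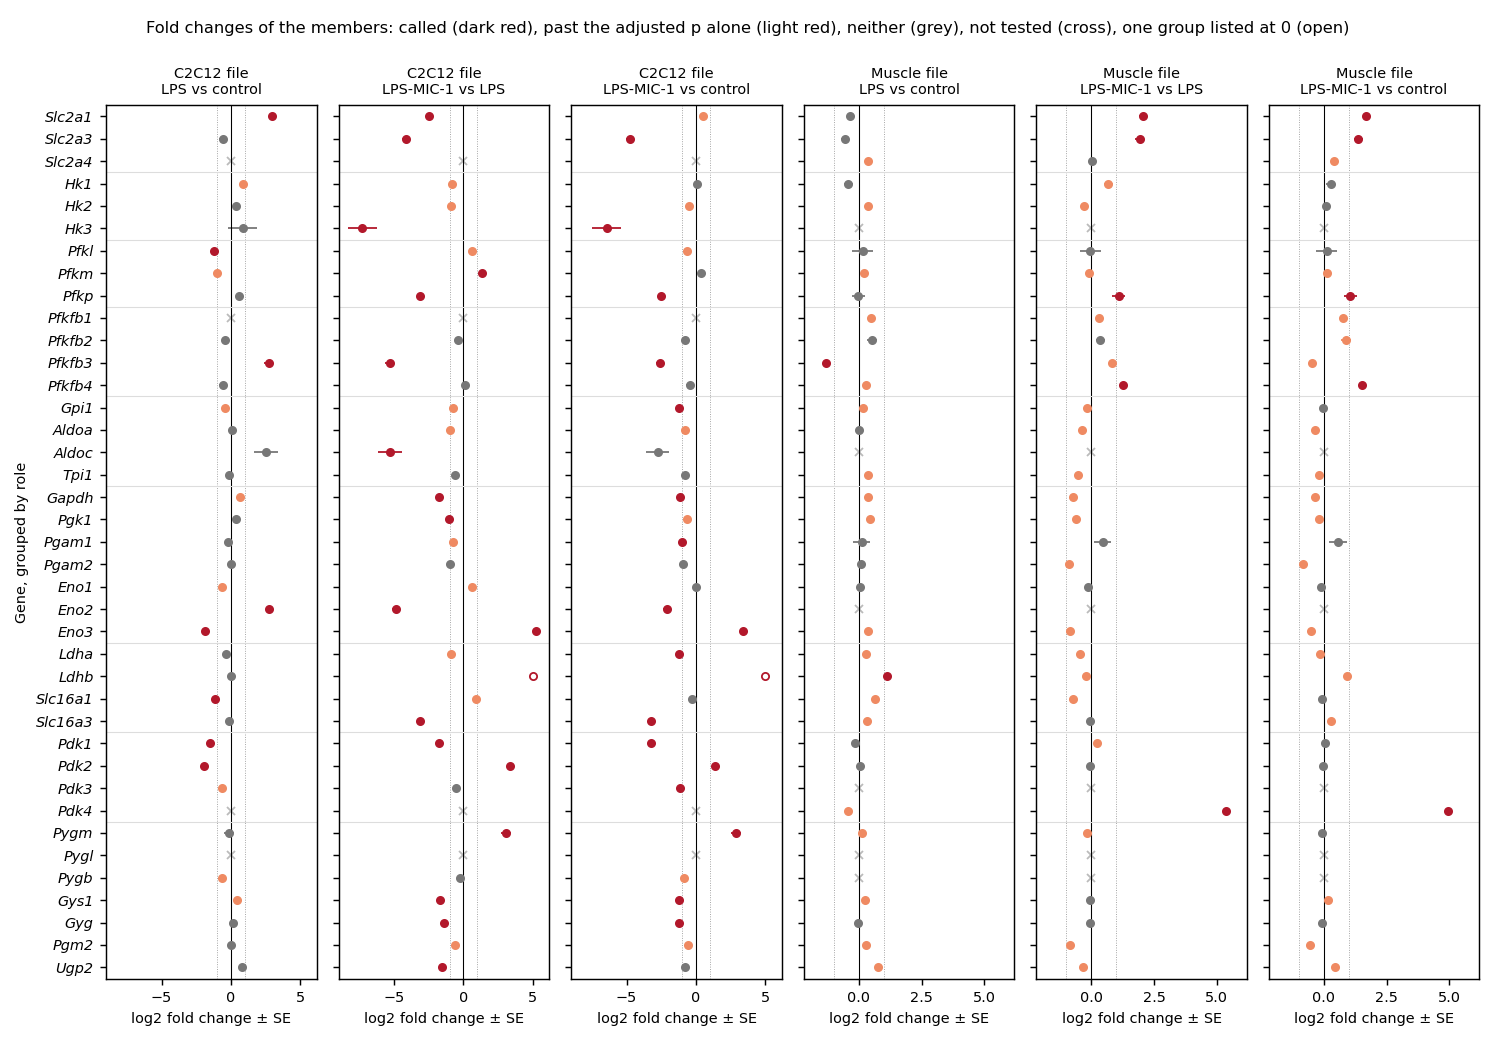
Fitted log2 fold change ± SE of each tested member (first group minus second, on the log2(FPKM + 0.1) scale) in 3 comparisons of the C2C12 file and 3 of the muscle file, with genes grouped by role, dotted lines at 2-fold and a cross for members that were not tested. Called members (dark red) number 8, 19 and 18 in C2C12 and 2, 5 and 5 in muscle, where members past the adjusted p alone (light red) lie inside the dotted lines. The open circles mark Ldhb, which was listed at 0 in one of the groups compared.

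In 6 of 11 families (Slc2a4, Hk2, Pfkm, Pgam2, Eno3 and Pygm) the muscle-type gene held most of the FPKM in every muscle library and at most 31.3% in any C2C12 library. The share of a family's FPKM that its muscle-type gene held was computed in each library. As the files were normalized separately, their shares are set side by side without a test. Pfkm held between 99.7% and 99.8% of phosphofructokinase FPKM in the muscle groups, and in C2C12 5.17% ± 0.306 (SD, n = 3) in control libraries, 3.20% ± 0.554 in LPS libraries and 12.9% ± 1.02 in LPS-MIC-1 libraries. Eno3 held 97.8% to 98.7% of enolase FPKM in muscle, and in C2C12 1.66% ± 0.0580, 0.642% ± 0.107 and 14.9% ± 0.630. Slc2a4 held 95.6% to 98.9% of the transporter FPKM in muscle and no more than 0.169% in any C2C12 group mean. Pgam2 held 99.5% to 99.8% in muscle and 0.568% to 0.67% in C2C12. Pygm held nearly all of the phosphorylase FPKM in muscle, and 1.85% ± 0.772, 2.39% ± 0.644 and 24.1% ± 8.0 in C2C12. Hexokinase 2 was the smaller part in C2C12 (20.4% ± 0.353, 14.8% ± 0.141 and 17.6% ± 0.910) and the larger in muscle, at 94.6%, 96.8% and 93.8%. Aldoa and Ldha were the major forms in both files, at 99.2% or more of their families.

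**Figure D4:**
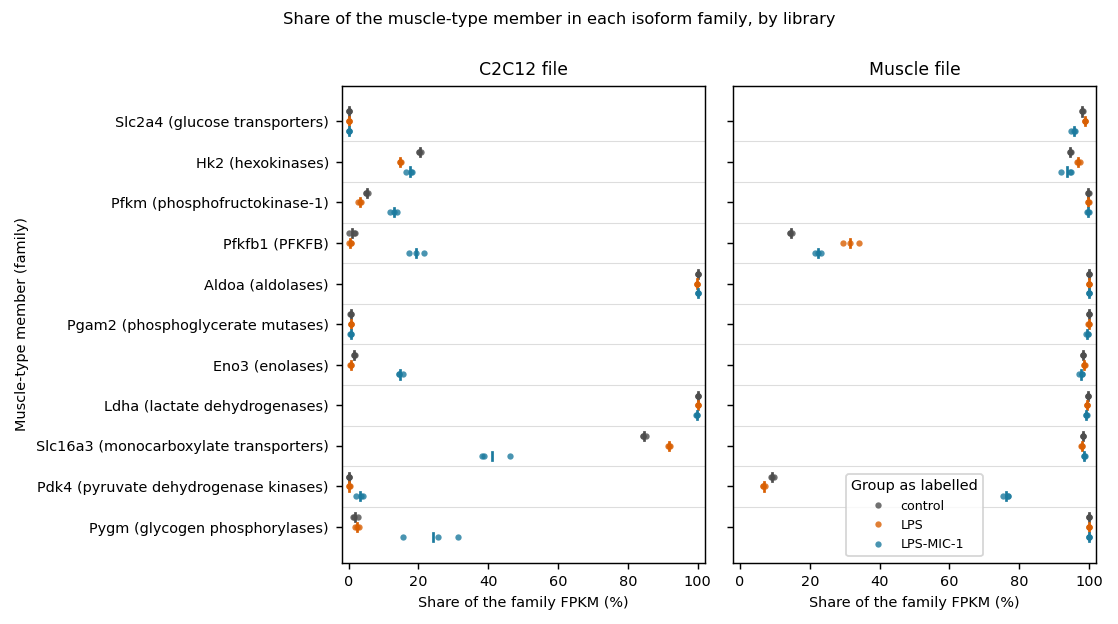
Share of a family's FPKM (%) held by its muscle-type gene in each library (points; short bars at the group mean) for 11 families, with the C2C12 file left and the muscle file right and the groups as labelled in colour. In muscle 9 of the 11 genes hold 91.9% or more in every library, Pfkfb1 holds 14.3% to 34.1%, and Pdk4 moves from 6.91% in LPS to 76.3% in LPS-MIC-1.

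Within C2C12 the libraries labelled LPS-MIC-1 held a larger muscle-type share than those labelled LPS in 8 of 11 families and a smaller one in 2, without overlap of the libraries. Of all genes tested, 66.5% passed the adjusted p in this comparison. Among the 8, the FPKM of Slc2a4 (1.20 to 0.382), Hk2 (35.9 to 19.5) and Aldoa (3463 to 1823) fell from LPS to LPS-MIC-1. Their shares were larger because the family sums fell further. Against control the muscle-type share of LPS-MIC-1 was larger in 6 and smaller in 3, and between LPS and control the share was larger in 2 and smaller in 4. Of all genes, 60.5% and 37.8% passed the adjusted p in these 2 comparisons. In muscle, LPS-MIC-1 held a smaller muscle-type share than LPS in 7 families (transporters, hexokinases, PFKFB enzymes, mutases, enolases, lactate dehydrogenases and phosphorylases) and a larger one in 2 (monocarboxylate transporters and pyruvate dehydrogenase kinases). Against control, muscle LPS-MIC-1 had a larger share in 3 and a smaller one in 4, and between LPS and control the share was larger in 4 and smaller in 3. With 3 libraries a group, an exact 2-sided permutation test cannot give a p under 0.1, and the smallest adjusted p over the 33 tests of a file was 0.132 in C2C12 and 0.143 in muscle, so no single share passed 0.05. Several of the muscle shifts are small in size. The Eno3 share, for instance, was 98.7% ± 0.0402 in LPS and 97.8% ± 0.507 in LPS-MIC-1.

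Glucose enters through the GLUT transporters. Group means below stand in the order control, LPS, LPS-MIC-1, as mean ± SD of 3 libraries, and ± after a log2 fold change gives its SE. Slc2a1 (GLUT1), the basal transporter of most cells, measured 155, 164 and 159 FPKM in C2C12 control libraries, 1248, 1255 and 1226 in LPS libraries and 245, 201 and 232 in LPS-MIC-1 libraries. The LPS libraries stood far above the other 6, and the 3 groups did not overlap. Slc2a1 was 7.80-fold higher in LPS than in control (log2 fold change 2.96 ± 0.072, limma adjusted p = 4.56e-08) and 5.49-fold below LPS in LPS-MIC-1 (-2.46 ± 0.072, adjusted p = 1.80e-08). Muscle held far less of it, 3.48, 4.38 and 3.93 FPKM in control libraries, 3.48, 2.74 and 2.90 in LPS libraries and 11.4, 12.9 and 14.0 in LPS-MIC-1 libraries, and there the LPS-MIC-1 libraries were the high ones, by 2.04 ± 0.12 over LPS (adjusted p = 2.71e-06) and 1.68 ± 0.12 over control (adjusted p = 8.35e-06). Without replicate 3 the muscle values were 1.97 and 1.61.

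Slc2a3 (GLUT3), a transporter of high affinity known from neurons and leukocytes, measured 13.6, 13.6 and 13.3 FPKM in C2C12 control libraries, 8.89, 8.99 and 8.71 in LPS libraries and 0.679, 0.209 and 0.425 in LPS-MIC-1 libraries. The last group lay below the other 2 without overlap (log2 fold change -4.16 ± 0.29 against LPS, adjusted p = 2.15e-06). In muscle Slc2a3 measured 1.55, 1.02 and 1.19 FPKM in control libraries, 0.763, 0.784 and 0.893 in LPS libraries and 3.05, 3.54 and 3.49 in LPS-MIC-1 libraries, the highest group (1.92 ± 0.17 over LPS, adjusted p = 2.75e-05, and 1.37 ± 0.17 over control, adjusted p = 0.0002), although the rise over control was under 2-fold (0.96) with a pseudocount of 1. Slc2a4 (GLUT4), the insulin-responsive transporter of muscle and fat, was low in C2C12, at 0.189, 0.112 and 0.0370 FPKM in C2C12 control libraries, 1.23, 1.28 and 1.10 in LPS libraries and 0.475, 0.386 and 0.285 in LPS-MIC-1 libraries. Muscle held 254, 264 and 282 FPKM in control libraries, 335, 335 and 349 in LPS libraries and 348, 366 and 329 in LPS-MIC-1 libraries. Its level was past the adjusted p over control in both treated groups, by 0.35 ± 0.05 and 0.39 ± 0.05, which is less than 2-fold. Endothelial genes, another source of GLUT1 in muscle, were measured alongside. Their 7 genes summed to between 85.2 and 91 FPKM in control, 54.4 and 56.7 in LPS, and 83.3 and 92.5 in LPS-MIC-1, and the neutrophil list rose from at most 0.91 to between 12.9 and 18.1 FPKM in LPS-MIC-1. The macrophage sums, given above, were also higher in all 3 LPS-MIC-1 libraries. The part of these cell types in the transporter values was not tested.

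Hexokinases trap glucose as glucose 6-phosphate. Hk1, the form of most tissues, measured 87.2, 87.6 and 84.8 FPKM in C2C12 control libraries, 165, 161 and 161 in LPS libraries and 90.5, 91.4 and 90.6 in LPS-MIC-1 libraries. Its LPS libraries lay above both other groups without overlap (0.91 ± 0.032 over control, adjusted p = 2.15e-07), under 2-fold. Hk2, the muscle form, measured 28.7, 28.0 and 28.1 FPKM in C2C12 control libraries, 36.8, 35.5 and 35.2 in LPS libraries and 20.7, 20.0 and 18.0 in LPS-MIC-1 libraries. Hk3, known from white blood cells, measured 26.1, 23.3 and 22.2 FPKM in C2C12 control libraries, 43.4, 43.9 and 42.5 in LPS libraries and 1.97, 0 and 0 in LPS-MIC-1 libraries, so that 2 of the last 3 libraries list it at 0 and the library with the macrophage trace does not. Both LPS-MIC-1 differences of Hk3 were called (adjusted p = 0.000219 and 0.000525), but the size of the fold change depends on the pseudocount (-7.30 against LPS with 0.1 and -9.54 with 0.01, where both calls were lost) and on replicate 1 (-8.76 without it, and -6.57 without replicate 2 or 3). Against control it was -6.44, with -7.90 when replicate 1 and -5.72 when replicate 2 or 3 was left out. The call against control was lost when any 1 library except LPS-MIC-1 replicate 1 was left out, and the call against LPS when any 1 LPS library was. Both were lost when only the 6 libraries compared were fitted.

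In muscle the hexokinases changed by less than 2-fold. Hk2 measured 40.5, 39.4 and 40.0 FPKM in control libraries, 52.3, 50.8 and 52.6 in LPS libraries and 42.3, 43.3 and 41.2 in LPS-MIC-1 libraries. The LPS libraries were the highest, by 0.38 ± 0.033 over control (adjusted p = 0.000236) and with LPS-MIC-1 lower than LPS (-0.30 ± 0.033, adjusted p = 9.88e-05). Hk1 measured 2.33, 2.32 and 2.21 FPKM in control libraries, 1.79, 1.42 and 1.89 in LPS libraries and 2.33, 2.49 and 3.62 in LPS-MIC-1 libraries. Its highest library was LPS-MIC-1 replicate 3. The macrophage sums were raised in each LPS-MIC-1 library and were highest in that one. Their part in the Hk1 values was not tested.

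Phosphofructokinase-1 commits sugar to glycolysis and is built from M, L and P subunits. Pfkl measured 145, 145 and 144 FPKM in C2C12 control libraries, 64.9, 59.3 and 59.0 in LPS libraries and 93.8, 87.0 and 103 in LPS-MIC-1 libraries, and the fall in LPS was called (-1.24 ± 0.067, adjusted p = 1.73e-06). Pfkp, the platelet subunit, measured 92.6, 88.5 and 92.5 FPKM in C2C12 control libraries, 137, 139 and 139 in LPS libraries and 18.5, 13.0 and 17.3 in LPS-MIC-1 libraries. LPS-MIC-1 stood 8.50-fold below LPS (-3.10 ± 0.12, adjusted p = 6.07e-08) and 5.61-fold below control (-2.50 ± 0.12, adjusted p = 2.17e-07). Pfkm, the muscle subunit, measured 13.9, 12.2 and 12.5 FPKM in C2C12 control libraries, 5.34, 6.98 and 7.44 in LPS libraries and 18.2, 13.5 and 17.9 in LPS-MIC-1 libraries, and was called higher in LPS-MIC-1 than in LPS (1.32 ± 0.16, adjusted p = 6.96e-05) but overlapped control. The leading subunit of the family by FPKM was thus Pfkl in control (58.1% ± 0.751), Pfkp in LPS (67.2% ± 0.888) and Pfkl in LPS-MIC-1 (74.4% ± 2.39).

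Muscle Pfkm measured 1554, 1549.9 and 1548 FPKM in control libraries, 1824, 1782 and 1801 in LPS libraries and 1682, 1742 and 1603 in LPS-MIC-1 libraries. It was past the adjusted p in LPS over control by 0.22 ± 0.03, and its 0.11 ± 0.03 for LPS-MIC-1 over control turned to -0.041 after quantile normalization. Muscle Pfkl measured 2.39, 2.60 and 1.64 FPKM in control libraries, 2.35, 2.29 and 2.60 in LPS libraries and 1.56, 1.60 and 5.04 in LPS-MIC-1 libraries, and Pfkp 0.840, 0.646 and 0.788 FPKM in control libraries, 0.616, 0.772 and 0.841 in LPS libraries and 1.48, 1.32 and 2.37 in LPS-MIC-1 libraries. The library highest in both is LPS-MIC-1 replicate 3, and the macrophage sums, higher in all 3 LPS-MIC-1 libraries, are highest there too. Their part in the values was not tested. Muscle Pfkp passed the filter only through LPS-MIC-1, so it entered the test because it was high there. Pfkp was called higher in LPS-MIC-1 (1.08 ± 0.26 against LPS, adjusted p = 0.00722, and 1.05 ± 0.26 against control, adjusted p = 0.00792) at levels near 1 FPKM, and the calls were lost with a pseudocount of 1 (0.63 and 0.62), the call against control after quantile normalization, and 1 of them when LPS replicate 1 (0.97 against LPS) or control replicate 2 (0.96 against control) was left out, where the change fell under 2-fold.

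The PFKFB enzymes make and break fructose 2,6-bisphosphate, the strongest activator of phosphofructokinase-1. Pfkfb3, the inducible form with high kinase activity, measured 14.4, 14.4 and 13.9 FPKM in C2C12 control libraries, 95.8, 93.1 and 95.1 in LPS libraries and 4.09, 1.82 and 1.53 in LPS-MIC-1 libraries. The LPS group was 6.65-fold above control (2.72 ± 0.31, adjusted p = 9.50e-05), and LPS-MIC-1 was 38.2-fold below LPS (-5.33 ± 0.31, adjusted p = 6.74e-07) and 5.74-fold below control (-2.61 ± 0.31). Among these low LPS-MIC-1 libraries, replicate 1 with the macrophage trace was the highest. In muscle the order was another, with 143, 135 and 135 FPKM in control libraries, 56.7, 53.9 and 55.4 in LPS libraries and 99.3, 99.9 and 94.7 in LPS-MIC-1 libraries. Muscle libraries labelled LPS were the lowest, 2.49-fold below control (-1.31 ± 0.038, adjusted p = 5.97e-07), and LPS-MIC-1 lay between them and control without overlap. Pfkfb4, known as hypoxia-inducible, was called higher in muscle LPS-MIC-1, with 22.0, 22.2 and 20.2 FPKM in control libraries, 25.4, 26.7 and 25.7 in LPS libraries and 66.1, 66.3 and 55.5 in LPS-MIC-1 libraries (1.26 ± 0.073 over LPS, adjusted p = 2.03e-06, and 1.54 ± 0.073 over control, adjusted p = 5.94e-07). Its C2C12 means were 7.80 ± 1.00, 5.34 ± 2.19 and 5.68 ± 0.767 FPKM. Pfkfb1, the liver and muscle form, measured 0.385, 0.444 and 0 FPKM in C2C12 control libraries, 0, 0.573 and 0.646 in LPS libraries and 2.72, 2.43 and 1.79 in LPS-MIC-1 libraries, and its muscle means were 27.3 ± 0.868, 38.2 ± 3.93 and 46.7 ± 3.51. Pfkfb2, the heart form, had means of 2.37 ± 0.306, 1.76 ± 0.198 and 1.39 ± 0.549 in C2C12 and of 0.783 ± 0.129, 1.15 ± 0.0947 and 1.51 ± 0.233 in muscle. The leading gene of the family in muscle was Pfkfb3 in each group, holding 73.6% ± 0.236, 45.9% ± 1.91 and 47.0% ± 1.34 of its FPKM.

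**Figure D5:**
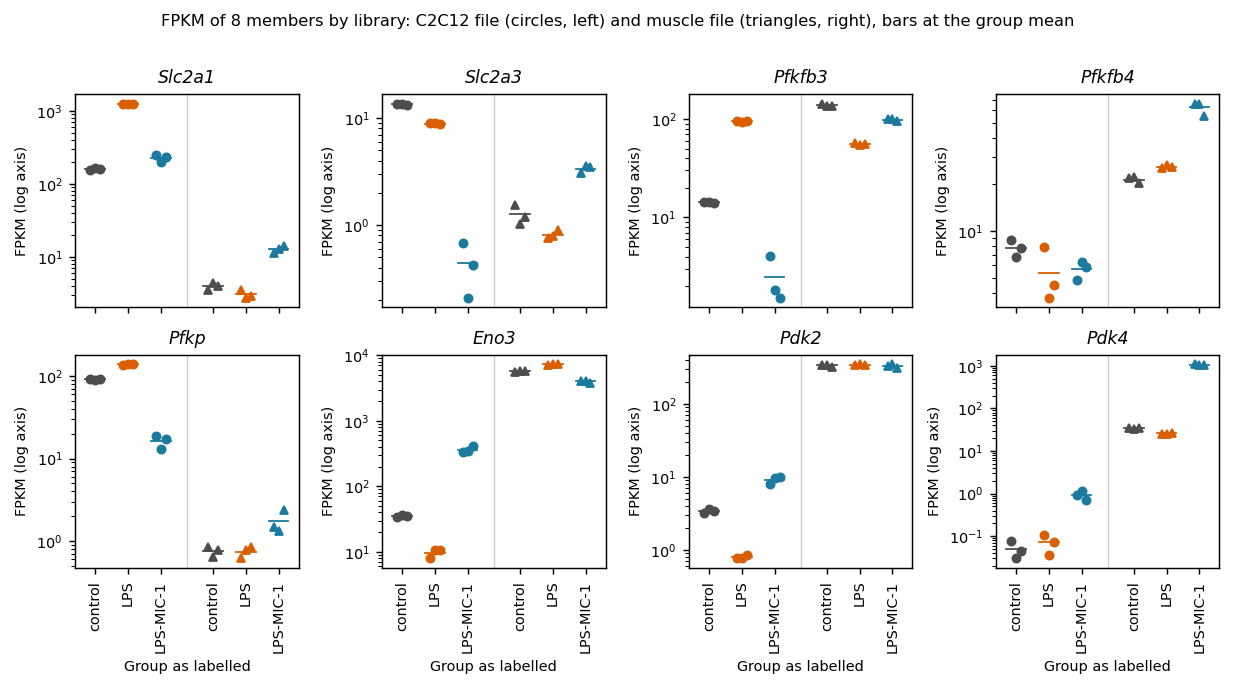
FPKM (log axis, bars at the group mean) of 8 members in each library of the C2C12 file (circles, left side of a panel) and the muscle file (triangles, right side), by group as labelled. Slc2a1 and Pfkfb3 peak in LPS in the C2C12 file but not in muscle, Slc2a3 and Pfkp are lowest in LPS-MIC-1 in C2C12 and highest there in muscle, and Pdk4 in muscle LPS-MIC-1 lies near 1070.

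Isomerase, aldolase and triose isomerase complete the upper part of the pathway. Gpi1, which turns glucose 6-phosphate into fructose 6-phosphate, had C2C12 means of 825 ± 15.1, 604 ± 4.40 and 364 ± 39.3 FPKM, and was called lower in LPS-MIC-1 than in control (-1.19 ± 0.074, adjusted p = 1.29e-06). Its muscle means were 749 ± 6.53, 838 ± 7.57 and 734 ± 34.3. Aldoc, the brain aldolase, measured 1.83, 0.797 and 1.69 FPKM in C2C12 control libraries, 8.53, 8.69 and 8.01 in LPS libraries and 0.904, 0 and 0 in LPS-MIC-1 libraries. Its difference between LPS-MIC-1 and LPS was called (adjusted p = 0.000408), with a size that rests on replicate 1 (-5.30 with and -6.41 without it), and the call was lost when any 1 LPS library, control replicate 3, or LPS-MIC-1 replicate 2 or 3 was left out (adjusted p from 0.00103 to 0.00206). It was also lost when only the 6 libraries compared were fitted (adjusted p = 0.00233) and with a pseudocount of 0.01 (adjusted p = 0.00251). The Aldoc rise in LPS over control (2.54 ± 0.84, adjusted p = 0.0281) was not called, but was called when only the 6 libraries compared were fitted (adjusted p = 0.000615). Aldoa was the most abundant member in muscle, with means of 31752 ± 491, 31529 ± 41.1 and 24651 ± 1085 FPKM. Its change of -0.36 ± 0.032 between LPS-MIC-1 and LPS became 0.046 after quantile normalization, and that of -0.37 ± 0.032 against control became 0.14, so the direction for Aldoa depends on the scaling. In C2C12, Aldoa means were 3190.0 ± 37.7, 3463 ± 20.1 and 1823 ± 272 FPKM. Tpi1, which interconverts the triose phosphates, had means of 1132 ± 5.99, 1012 ± 10.7 and 677 ± 167 in C2C12, and of 1967 ± 35.0, 2528 ± 30.9 and 1730.1 ± 56.9 in muscle, where LPS was the highest group.

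Gapdh is the gene to which the study's PCR measurements were scaled. It measured 4848, 5233 and 4966 FPKM in C2C12 control libraries, 7815, 7899 and 7870.2 in LPS libraries and 2289, 2111 and 2523 in LPS-MIC-1 libraries, without overlap of the groups. The log2 fold change was -1.77 ± 0.095 for LPS-MIC-1 against LPS (adjusted p = 4.53e-07) and -1.12 ± 0.095 against control (adjusted p = 8.82e-06), while that of 0.65 ± 0.095 for LPS against control turned to -0.58 after quantile normalization. In muscle Gapdh measured 9630.4, 9913 and 9047 FPKM in control libraries, 11993, 12559 and 12281 in LPS libraries and 7174, 8016 and 7088 in LPS-MIC-1 libraries. LPS was higher than control by 0.37 ± 0.053 (adjusted p = 0.00258), and LPS-MIC-1 lower than LPS (-0.73 ± 0.053, adjusted p = 7.50e-06) and lower than control (-0.36 ± 0.053, adjusted p = 0.000474). Pgk1, the first ATP-forming step, had C2C12 means of 1323 ± 26.0, 1676 ± 17.9 and 837 ± 128 FPKM, and its fall between LPS and LPS-MIC-1 was called at -1.01 ± 0.10, just past 2-fold (-0.98 without LPS-MIC-1 replicate 1, -0.92 without replicate 2). Muscle Pgk1 means were 644 ± 12.8, 881 ± 8.17 and 568 ± 13.9.

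The phosphoglycerate mutases move the phosphate group along the 3-carbon chain. Pgam1 measured 1105, 1065 and 1066 FPKM in C2C12 control libraries, 912, 916 and 941 in LPS libraries and 513, 458 and 655 in LPS-MIC-1 libraries. LPS-MIC-1 was lower than control (-1.01 ± 0.12, adjusted p = 6.74e-05), and fell short of 2-fold without control replicate 1 (-0.99) or LPS-MIC-1 replicate 1 (-0.98) or 2 (-0.90). Pgam2, the muscle form, measured 7.49, 4.56 and 6.49 FPKM in C2C12 control libraries, 5.52, 6.59 and 6.58 in LPS libraries and 2.90, 3.05 and 3.43 in LPS-MIC-1 libraries. In muscle, Pgam2 measured 5631, 5836 and 5775 FPKM in control libraries, 6112, 6079 and 5879 in LPS libraries and 3295, 3441 and 3043 in LPS-MIC-1 libraries. The LPS-MIC-1 libraries were the lowest (-0.89 ± 0.043 against LPS, adjusted p = 7.10e-07, and -0.82 ± 0.043 against control, adjusted p = 1.08e-06). Muscle Pgam1 measured 9.40, 9.91 and 8.37 FPKM in control libraries, 9.83, 9.87 and 10.2 in LPS libraries and 9.33, 10.2 and 26.7 in LPS-MIC-1 libraries, and its 1 high library is LPS-MIC-1 replicate 3.

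The enolases form phosphoenolpyruvate. Eno3, the muscle enolase, measured 33.5, 35.9 and 35.3 FPKM in C2C12 control libraries, 7.93, 10.5 and 10.6 in LPS libraries and 330.3, 343 and 415 in LPS-MIC-1 libraries. It was 3.60-fold lower in LPS than in control (-1.85 ± 0.13, adjusted p = 5.95e-06) and 10.4-fold higher in LPS-MIC-1 than in control (3.37 ± 0.13, adjusted p = 6.81e-08). Against LPS, the rise of Eno3 was 5.22 ± 0.13 (adjusted p = 8.60e-09). Eno2, the neuronal enolase, measured 28.5, 27.3 and 27.5 FPKM in C2C12 control libraries, 193, 194 and 185 in LPS libraries and 10.3, 5.10 and 4.82 in LPS-MIC-1 libraries. LPS was 6.87-fold above control (2.78 ± 0.25, adjusted p = 2.75e-05), and LPS-MIC-1 28.3-fold below LPS (-4.89 ± 0.25, adjusted p = 3.55e-07) and 4.12-fold below control (-2.12 ± 0.25, adjusted p = 7.57e-05). Eno1, the common form, measured 2036, 2064 and 2009 FPKM in C2C12 control libraries, 1327, 1294 and 1308 in LPS libraries and 1942, 2015 and 2242 in LPS-MIC-1 libraries, with LPS below both other groups.

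Muscle Eno3 measured 5508, 5678 and 5783 FPKM in control libraries, 7175, 7297 and 7236 in LPS libraries and 4101, 4059.9 and 3827 in LPS-MIC-1 libraries. The groups did not overlap, with LPS above control by 0.36 ± 0.031 (adjusted p = 0.00025) and LPS-MIC-1 below LPS (-0.86 ± 0.031, adjusted p = 1.29e-07) and below control (-0.50 ± 0.031, adjusted p = 3.05e-06). Eno1 measured 96.6, 97.5 and 96.9 FPKM in control libraries, 99.3, 102 and 95.3 in LPS libraries and 81.3, 78.3 and 109.6 in LPS-MIC-1 libraries in muscle, and Eno2 was at 0, 0 and 0 FPKM in control libraries, 0.311, 0 and 0.252 in LPS libraries and 0.936, 0 and 0.731 in LPS-MIC-1 libraries. The sum of contractile genes was also lowest in LPS-MIC-1, but their median was not. The muscle fibre list holds 15 genes led by Acta1, Ckm and Myl1. It summed to between 252561 and 258264 FPKM in control, 240481 and 245763 in LPS, and 187746 and 200958 in LPS-MIC-1. Its median gene stood between 10017 and 10900 FPKM in control, 10696 and 11127 in LPS, and 12685 and 14078 in LPS-MIC-1. By the adjusted p alone, 9 of its 15 genes were lower and 3 higher than in LPS, beside 28.2% and 28.3% of all genes. Against control 6 were lower and 5 higher, beside 28.5% and 30%. The part of this list in the falls of Pgam2, Eno3 and Gapdh was not tested. Quantile normalization moved the median of all muscle genes by -0.12 for LPS-MIC-1 against LPS and -0.1 against control, and took the share of higher calls among all calls from 64% to 53.9% and from 60.4% to 52.3%.

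Lactate dehydrogenase and the monocarboxylate transporters make and export lactate. Ldha measured 2129.8, 2173 and 2213 FPKM in C2C12 control libraries, 1721, 1681 and 1826 in LPS libraries and 914, 811 and 1106 in LPS-MIC-1 libraries, and the last group was 2.30-fold below control (-1.21 ± 0.11, adjusted p = 1.32e-05). Ldhb, the heart-type subunit, was listed at 0 in all 6 libraries labelled control or LPS and measured 3.08, 3.28 and 3.08 in LPS-MIC-1. It was called in both comparisons with LPS-MIC-1, and no fold change is given against a group listed at 0. Ldhb passed the C2C12 filter only through LPS-MIC-1, so its calls rest on the group that let it in. In muscle Ldha measured 2189.8, 2333 and 2331 FPKM in control libraries, 2793, 2799 and 2786 in LPS libraries and 2078, 2033 and 1976 in LPS-MIC-1 libraries, with LPS the highest group and changes under 2-fold. Muscle Ldhb measured 8.07, 8.84 and 7.58 FPKM in control libraries, 18.5, 18.0 and 17.6 in LPS libraries and 16.8, 15.6 and 14.4 in LPS-MIC-1 libraries, 2.21-fold higher in LPS than in control (1.14 ± 0.075, adjusted p = 5.30e-05) and close to 2-fold higher in LPS-MIC-1 (0.93 ± 0.075, adjusted p = 1.40e-05).

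Slc16a3 (MCT4), the lactate exporter of glycolytic cells, measured 280.0, 262 and 273 FPKM in C2C12 control libraries, 245, 246 and 242 in LPS libraries and 30.6, 22.8 and 31.7 in LPS-MIC-1 libraries. Its LPS-MIC-1 libraries were 8.62-fold below LPS (-3.12 ± 0.11, adjusted p = 5.41e-08) and 9.58-fold below control (-3.27 ± 0.11, adjusted p = 4.20e-08). Slc16a1 (MCT1), which carries lactate in either direction, measured 51.5, 49.0 and 47.3 FPKM in C2C12 control libraries, 21.0, 22.9 and 21.9 in LPS libraries and 35.7, 37.0 and 50.2 in LPS-MIC-1 libraries, and was called lower in LPS than in control (-1.17 ± 0.12, adjusted p = 6.25e-05). The MCT4 share of the pair averaged 84.6% ± 0.534, 91.8% ± 0.317 and 41.0% ± 4.49. Slc16a3 in muscle measured 309, 309 and 299 FPKM in control libraries, 373, 399.6 and 387 in LPS libraries and 371, 398 and 351 in LPS-MIC-1 libraries, and Slc16a1 measured 5.15, 5.87 and 5.21 FPKM in control libraries, 8.91, 8.24 and 8.43 in LPS libraries and 4.98, 4.94 and 5.42 in LPS-MIC-1 libraries. Slc16a1 was highest in muscle LPS, 0.65 ± 0.073 over control (adjusted p = 0.00077) and with LPS-MIC-1 lower than LPS (-0.73 ± 0.073, adjusted p = 5.38e-05).

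Pdk4 in muscle showed the largest change of any member in that tissue. It measured 35.5, 33.7 and 35.2 FPKM in control libraries, 24.9, 25.5 and 27.1 in LPS libraries and 1092, 1071 and 1047 in LPS-MIC-1 libraries. The 3 LPS-MIC-1 libraries were alike and far above the other 6, 41.4-fold over LPS (5.37 ± 0.039, adjusted p = 2.47e-11) and 30.8-fold over control (4.94 ± 0.039, adjusted p = 4.87e-11), and the change was 5.38 against LPS without replicate 3. The libraries labelled LPS lay below control (-0.43 ± 0.039, adjusted p = 0.000301). All 14 tested LPS-response genes were also higher in LPS-MIC-1 than in LPS, so for Pdk4 the parts of LPS and MIC-1 cannot be told apart. Pdk2, the most abundant kinase of muscle in the other groups, measured 344, 341 and 318 FPKM in control libraries, 339.7, 348 and 340.4 in LPS libraries and 325, 346 and 308 in LPS-MIC-1 libraries, with overlapping groups. The Pdk4 share of kinase FPKM was 9.20%, 8.83% and 9.75% in the control libraries, 6.72%, 6.74% and 7.26% in LPS and 76.7%, 75.2% and 76.9% in LPS-MIC-1. Pdk1 measured 5.66, 5.63 and 6.53 FPKM in control libraries, 5.59, 5.06 and 5.21 in LPS libraries and 6.27, 5.91 and 6.32 in LPS-MIC-1 libraries in muscle, and Pdk3 0.394, 0.274 and 0.712 FPKM in control libraries, 0.357, 0.239 and 0.237 in LPS libraries and 0.155, 0.635 and 0.708 in LPS-MIC-1 libraries.

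In C2C12 the kinases followed another order. Pdk1, a hypoxia-inducible form, measured 43.4, 44.8 and 44.7 FPKM in C2C12 control libraries, 15.9, 15.6 and 16.1 in LPS libraries and 4.56, 4.10 and 5.54 in LPS-MIC-1 libraries, 3 groups without overlap (-1.48 ± 0.10 for LPS against control, adjusted p = 5.42e-06, and -3.21 ± 0.10 for LPS-MIC-1 against control, adjusted p = 2.32e-08). Pdk2 measured 3.17, 3.59 and 3.43 FPKM in C2C12 control libraries, 0.763, 0.766 and 0.846 in LPS libraries and 7.84, 9.47 and 10.1 in LPS-MIC-1 libraries, lower in LPS than in control (-1.97 ± 0.12, adjusted p = 3.37e-06) and highest in LPS-MIC-1 (3.36 ± 0.12 over LPS, adjusted p = 5.26e-08, and 1.39 ± 0.12 over control, adjusted p = 1.11e-05). Pdk3 measured 33.3, 32.1 and 33.9 FPKM in C2C12 control libraries, 21.5, 20.1 and 21.3 in LPS libraries and 13.6, 13.2 and 17.2 in LPS-MIC-1 libraries, and was called lower in LPS-MIC-1 than in control (-1.18 ± 0.10, adjusted p = 7.28e-06). Pdk4 stayed low, at 0.0762, 0.0302 and 0.0448 FPKM in C2C12 control libraries, 0.109, 0.0362 and 0.0720 in LPS libraries and 0.936, 1.18 and 0.690 in LPS-MIC-1 libraries.

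Glycogen is broken down by the phosphorylases and built by glycogenin and glycogen synthase. Pygm, the muscle phosphorylase, measured 0.683, 0.329 and 0.289 FPKM in C2C12 control libraries, 0.372, 0.241 and 0.480 in LPS libraries and 4.17, 4.77 and 2.42 in LPS-MIC-1 libraries, and was called higher in the last group (3.04 ± 0.36 against LPS, adjusted p = 6.72e-05, and 2.88 ± 0.36 against control, adjusted p = 0.000107). Pygm passed the filter only through that group, so it entered the test because it was high there. Pygb, the brain form, measured 23.6, 21.3 and 21.3 FPKM in C2C12 control libraries, 14.4, 13.5 and 15.2 in LPS libraries and 12.1, 10.4 and 13.2 in LPS-MIC-1 libraries, and Pygl, the liver form, 0.643, 0.412 and 0.259 FPKM in C2C12 control libraries, 0.494, 0.270 and 0.268 in LPS libraries and 0, 0.0429 and 0 in LPS-MIC-1 libraries. Gys1, the glycogen synthase of muscle and most tissues, fell from 96.6 ± 3.01 FPKM in LPS to 30.6 ± 0.897 in LPS-MIC-1 (-1.65 ± 0.046, adjusted p = 1.55e-08), and control stood at 72.8 ± 3.03. Glycogenin (Gyg) had means of 61.8 ± 1.33, 68.4 ± 1.14 and 26.7 ± 4.32, called lower in LPS-MIC-1 against both groups. Ugp2, which makes the UDP-glucose that glycogen synthase uses, had means of 13.7 ± 1.66, 23.5 ± 2.03 and 8.15 ± 2.02, and fell between LPS and LPS-MIC-1 (-1.54 ± 0.17, adjusted p = 4.77e-05).

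In muscle no glycogen gene was called by limma, and of the 5 tested, 4 (LPS against control), 3 (LPS-MIC-1 against LPS) and 3 (LPS-MIC-1 against control) passed the adjusted p at less than 2-fold, with 4, 3 and 5 at an unadjusted p under 0.05. Of all genes, 15.7%, 56.5% and 58.5% passed the adjusted p in these comparisons. Pygm measured 5259, 5435 and 5396 FPKM in control libraries, 5783, 5909 and 5704 in LPS libraries and 5230.2, 5135 and 4858 in LPS-MIC-1 libraries. Pygb measured 0.50, 0.616 and 0.865 FPKM in control libraries, 0.605, 0.667 and 0.720 in LPS libraries and 0.786, 0.892 and 1.33 in LPS-MIC-1 libraries, and Pygl 0.195, 0.111 and 0.224 FPKM in control libraries, 0.169, 0.226 and 0.168 in LPS libraries and 0.247, 0.106 and 0.226 in LPS-MIC-1 libraries. Ugp2 had means of 84.3 ± 8.44, 144 ± 9.98 and 115 ± 17.8, higher in LPS than in control by 0.77 ± 0.11 (adjusted p = 0.00295). Pgm2, listed under a symbol that has stood for either of a pair of phosphoglucomutases, had means of 922 ± 5.55, 1129 ± 6.18 and 631 ± 44.6, with LPS-MIC-1 lower than LPS (-0.84 ± 0.045, adjusted p = 1.28e-06). Its C2C12 means were 109 ± 1.99, 110.2 ± 1.89 and 73.2 ± 10.2. Gys1 means in muscle were 120.5 ± 4.13, 142 ± 1.18 and 136 ± 7.76, and those of Gyg 214 ± 6.14, 207 ± 3.96 and 201 ± 7.29.

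Of 74 further genes of the same pathways, 70 were in the tables, and 51 were tested in C2C12 and 59 in muscle. Among the C2C12 libraries labelled LPS, 3 of 51 were called higher than control and 3 lower (11.8% in all, beside 20.9% of all genes). The lower ones were all among the 7 tested genes of the pentose phosphate pathway, which branches from glucose 6-phosphate, led by Rpia (-1.27 ± 0.089) and Pgd (-1.25 ± 0.067). The higher ones were among 15 regulators, led by Myc (3.59 ± 0.09) and Mlx (1.51 ± 0.083). By limma none was called among 7 further glycolysis and gluconeogenesis genes, 9 genes of the pyruvate dehydrogenase complex and pyruvate carriers, or 13 of glycogen regulation, where 7, 5 and 9 had an unadjusted p under 0.05. LPS-MIC-1 against LPS gave 8 higher and 15 lower of 51 (45.1%, beside 49.9%). The calls were 3 higher and 1 lower in glycolysis and gluconeogenesis (G6pc3 1.86 ± 0.056, Pck2 -1.25 ± 0.12), 1 and 1 in the pyruvate list (Brp44 1.07 ± 0.11, Pdp2 -1.66 ± 0.17), 1 and 3 in glycogen regulation (Stbd1 6.63 ± 0.25, Epm2a -4.38 ± 0.12), 1 and 2 in the pentose phosphate list (Taldo1 1.95 ± 0.071, Tkt -1.73 ± 0.034), and 2 and 8 among regulators, led by Arrdc4 (-5.95 ± 0.58) and by Tbc1d1, which was listed at 0 in all 3 LPS-MIC-1 libraries. Against control it gave 7 higher and 15 lower (43.1%, beside 43.3%).

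In muscle, LPS against control gave 1 higher and 2 lower of the 59 pathway genes, namely Prkaa2 (1.56 ± 0.33), Myc (-1.14 ± 0.18) and Ppp1r3d (-1.20 ± 0.23). That is 5.08% of the list beside 1.25% of all genes. LPS-MIC-1 against LPS gave 11 higher and 5 lower (27.1%, beside 15.1% of all genes), and against control 10 and 4 (23.7%, beside 15.5%). The regulators held most of them, 6 higher and 3 lower of 18 against LPS. Foxo1, a transcription factor known to act on Pdk4, was the largest, at 2.64, 2.79 and 2.67 FPKM in control libraries, 2.84, 2.77 and 2.93 in LPS libraries and 35.6, 37.8 and 34.1 in LPS-MIC-1 libraries (3.61 ± 0.06, adjusted p = 1.61e-09), followed by Myc (2.68 ± 0.18). Pkm2, an older symbol of the pyruvate kinase gene Pkm, measured 23.3, 24.0 and 29.5 FPKM in LPS and 54.1, 50.2 and 122 in LPS-MIC-1 (1.44 ± 0.30, adjusted p = 0.00348), and the highest library is again replicate 3. With Pck2 (1.19 ± 0.21) it leads 3 higher and 0 lower of 9 in glycolysis and gluconeogenesis, where 4 of the 9 were lower at an unadjusted p under 0.05. The pyruvate list had 1 of 9 called, Pdp2 (1.27 ± 0.18), a phosphatase that reactivates the complex, while 7 of the other 8 were lower by the adjusted p alone, each under 2-fold. Of all genes, 28.2% were lower by the adjusted p alone. Glycogen regulation had 1 higher and 1 lower of 16 (Pgm1 1.58 ± 0.32, Stbd1 -1.41 ± 0.049), and the pentose phosphate list 1 lower of 7 (Rpia -1.85 ± 0.095).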

How the data were processed

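Gene expression was measured by RNA sequencing in 18 libraries, 9 labelled as C2C12 cells and 9 as gastrocnemius muscle, in 3 groups of 3 each. The FPKM values were deposited by the authors, who per the submitters' notes used kallisto and DESeq2 with the mouse build mm9, and tximport by the study's methods. FPKM keep no read counts, and the depth is unknown. Steps of low values put the depth relative to control replicate 1 between 0.464 and 1.02 in C2C12, lowest in LPS-MIC-1 replicate 3, and between 0.988 and 1.11 in muscle, so low genes of that C2C12 library are the least precise. The authors' DESeq2 tables, which hold fold changes and p-values, were not used, nor were 9 unnamed numeric columns of the muscle table. Of the 21401 symbols of a table, 26 were dates or numbers.

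Each experiment was fitted with limma 3.58.1 (R 4.3.3) on log2(FPKM + 0.1), with group means over 9 libraries, eBayes with a trend, a mean FPKM over 1 and Benjamini-Hochberg adjustment over all genes tested. Calls needed an adjusted p under 0.001 (C2C12) or 0.05 (muscle) and a log2 fold change over 1 in size, thresholds taken from the study's methods. The script was tested on simulated data. Shares of family FPKM were compared by exact 2-sided permutation tests. The labels do not state separate cultures, so p-values measure the spread between these samples only.

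The members and gene lists were chosen with earlier results of these data known. Values are given for all members. Those of the isoform families other than the aldolases and PFKFB enzymes, and the 5 largest called changes in each direction, are given by library, and the 2 largest called genes of each pathway list are named. The symbols of all 39 members matched RefSeq (GRCm38.p6). The symbols Pkm, Tigar, Mpc1 and Mpc2 were not matched, and Pkm2, Brp44 and Brp44l stand for older names. Alternatives changed the pseudocount, the filter, the scaling, the variance model, the thresholds and the libraries fitted.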

Additional observations from a re-analysis of the deposited data

Results flagged for a closer look

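Of the members called in both tables, 6 pairs of results had opposite directions in the same comparison, with every library of one group above or below every library of the other. The difference between C2C12 and muscle was not tested, since the tables were normalized separately, and the C2C12 libraries labelled control and LPS carry macrophage genes. Pfkfb3 changed by 2.72 (log2, LPS against control) in C2C12 and by -1.31 in muscle. Slc2a1 changed by -2.46 in LPS-MIC-1 against LPS in C2C12 and by 2.04 in muscle. For Slc2a3 the changes against LPS were -4.16 and 1.92, and against control -4.76 and 1.37. For Pfkp they were -3.10 and 1.08 against LPS, and -2.50 and 1.05 against control. Muscle Pfkp passed the filter on low values only through LPS-MIC-1, and both its muscle calls were lost with a pseudocount of 1 and 1 or the other when a single library was left out. Of the 30 members tested in both tables, 11 (36.7%) were opposite without overlap of the groups in LPS against control, 11 (36.7%) in LPS-MIC-1 against LPS and 9 (30%) against control, beside 15.1%, 33.2% and 32.8% of the 8422 genes tested in both. Opposite calls in both tables numbered 1, 3 and 2 (3.33%, 10% and 6.67%), beside 0.142%, 5.09% and 4.04% of those genes.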

How the results depend on the processing

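Of 1006 values of called members under the alternatives, 971 kept direction and call, 35 lost the call and 0 reversed. The counts of called members moved by over 1.5 times under 3 alternatives. By the adjusted p alone, at any fold change, they were 16 (LPS against control) and 29 (LPS-MIC-1 against LPS) in C2C12, and 20, 24 (LPS-MIC-1 against LPS) and 22 (LPS-MIC-1 against control) in muscle. With a mean FPKM over 5 both muscle LPS-MIC-1 counts were 3, since fewer genes were tested, and with a pseudocount of 1 the count against control was 3. Leaving out 1 library at a time gave 8 to 9, 16 to 19 and 16 to 18 calls in C2C12, and 2 to 2, 4 to 5 and 4 to 5 in muscle. The lost calls were those of Hk3, Aldoc, Pgk1 and Pgam1 in C2C12 and of Pfkp and Slc2a3 in muscle, and the cause was not tested. The 264 alternative isoform shares, from a ratio of group means or with 1 library left out, moved by no more than the spread between replicates. Leaving 1 of 3 libraries out cannot move a mean by more than that spread. These values are therefore no test of the shares. Median-ratio scaling changed no count of called members, as the deposited FPKM already stand on that scale.

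Deviations of libraries with the same replicate number were weakly correlated (from -0.0757 to 0.0573 in C2C12 and from -0.0540 to 0.0823 in muscle). Between libraries with different numbers the correlations ran from -0.0910 to 0.121 in C2C12 and from -0.0745 to 0.0811 in muscle. In muscle the same-numbered pairs of LPS and LPS-MIC-1 were all positive (0.0823, 0.0626 and 0.0282), while those with control went both ways. Such small values cannot settle whether same-numbered libraries were handled together. With the replicate block, 8, 19 and 17 members were called in C2C12 and 2, 5 and 5 in muscle, and the call lost was Hk3 in LPS-MIC-1 against control (adjusted p = 0.00112).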
